A study of Mus musculus with 4 samples.

Results

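The genes described here are 10 nuclear effectors and feedback genes of the canonical Wnt pathway in cultured mouse whisker follicle cells. They are the 4 TCF/LEF transcription factors Lef1, Tcf7, Tcf7l1 and Tcf7l2, the intracellular feedback genes Axin2, Nkd1 and Nkd2, and the membrane feedback genes Rnf43, Znrf3 and Apcdd1. They were taken by gene name from a table of 51826 genes, in which each name matched 1 gene, and they were selected on their read counts in these same libraries, so the values below describe them and are not independent evidence. Of the 10 genes, 9 had a mean of at least 10 reads over the 4 libraries and entered the fold comparisons with 16734 genes in all. Rnf43 did not, and is given by its reads. Poly-A RNA was sequenced from dermal papilla cells (DPCs), the mesenchymal cells at the base of the follicle, and from dermal sheath cells (DSCs), the mesenchyme that wraps it, each at passage 3 (low passage) and at passage 9 (high passage). Both cell types came from whisker follicles of EGFP-transgenic C57BL/6J mice 5 to 6 weeks of age, labelled as wild type, and were grown in DMEM. The promoter that drives EGFP was not given in the sources used here. Each of the 4 groups was 1 culture and 1 library. No difference therefore had a replicate check, and passage could not be told apart from anything else that differed between the cultures or library preparations.

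In the canonical Wnt pathway, a destruction complex built on Axin and Apc degrades β-catenin in the absence of a Wnt ligand. When Wnt binds Frizzled and Lrp receptors, β-catenin accumulates, enters the nucleus and binds TCF/LEF factors, which hold target genes silent without it and activate them with it. Many targets are inhibitors of the pathway itself, so their transcripts are widely used as readouts of signalling, and Wnt signalling in dermal papilla cells is known for its part in hair induction.

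Lef1 and Axin2 were the effector and the feedback gene with the widest separation between libraries, and the RefSeq sequence just upstream of each is shown for that reason. Each stretch holds the 250 bases before the RefSeq start site on the plus strand of GRCm38.p6, at chr3:131110073-131110322 for Lef1 and at chr11:108920099-108920348 for Axin2. Capitals mark CTTTG or its reverse complement CAAAG, the short core of the TCF/LEF recognition sequence.
Lef1: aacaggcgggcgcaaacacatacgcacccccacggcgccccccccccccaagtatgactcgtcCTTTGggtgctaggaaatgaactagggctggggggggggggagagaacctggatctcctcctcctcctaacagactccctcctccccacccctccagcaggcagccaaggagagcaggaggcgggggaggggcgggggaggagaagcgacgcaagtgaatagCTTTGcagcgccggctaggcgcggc
Axin2: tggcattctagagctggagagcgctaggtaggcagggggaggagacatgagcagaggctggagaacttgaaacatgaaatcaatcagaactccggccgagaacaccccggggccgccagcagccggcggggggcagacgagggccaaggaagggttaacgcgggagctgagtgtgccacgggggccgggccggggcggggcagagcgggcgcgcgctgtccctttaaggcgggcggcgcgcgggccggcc
The Lef1 stretch held 2 of these core matches and the Axin2 stretch held 0, with a GC content of 66.4% and 69.2% respectively. The core was common in such windows, since 53.9% of 32851 RefSeq windows of 300 bases held it on one strand or the other. Among 14 windows of 8 of the genes, 7 held the core, and these belonged to Lef1, Tcf7l1 and Tcf7l2. The longer form CTTTGAT or its reverse ATCAAAG lay in 3.73% of all windows and in 0 of those 14. A match describes letters in a window and is not a binding site, and the absence of a match says nothing about control from elsewhere.

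Library totals ran from 34981284 to 47604059 assigned reads, and 22230 to 23548 genes had at least 1 read. A count of 3 reads, the lower limit of detection used here, corresponded to between 0.0658 and 0.0836 CPM, that is read counts divided by the scaled library size. All intervals given with fold changes are 95% counting intervals, which compare libraries and cover counting error only. The intervals and plain folds come from scaled counts alone, while log2 fold changes include a prior count of 2 reads. For genes with few reads the log2 value is therefore a smaller difference than the plain ratio. In bulk RNA, fewer cells of a type and less transcript per cell cannot be told apart. Of the dermal papilla markers, Sox2 separated the cell types, with 1677 and 1491 reads in low- and high-passage DPCs against 269 and 178 in DSCs, and Tbx18 was also higher in DPCs, at 367 and 92.3 CPM against 47.7 and 31.7 CPM. Other markers of that list went the other way, with Ncam1 at 99.0 and 46.6 CPM in DPCs against 310 and 342 CPM in DSCs, Bmp4 at 57.2 and 3.82 against 156 and 126 CPM, and Fgf7 at 121 and 162 against 181 and 356 CPM, whereas Alpl had 6 to 23 reads in all 4 libraries. The summed dermal papilla list stood at 2160 and 1940 CPM in low- and high-passage DPCs and at 1590 and 2320 CPM in DSCs, and 0 to 2 of its 20 genes were at 0 in a library. The 10 dermal sheath markers did not set DSCs apart from DPCs at low passage, since they summed to 10600 CPM in DPCs and 8600 CPM in DSCs, with Abcc9 at 0 in every library. At high passage the sheath sum was 3890 CPM in DPCs and 7800 CPM in DSCs, and the 10 fibroblast genes summed to 28100 and 9820 CPM in low- and high-passage DPCs against 46800 and 41400 CPM in DSCs. Markers of other cells were not constant between libraries. The 12 keratinocyte genes summed to between 5.65 and 60.6 CPM, highest in high-passage DSCs where Dsp had 2307 reads, with Krt5, Krt14, Krt15, Krt1 and Cdh1 at 3 reads or fewer throughout. The 8 T cell genes summed to 1.52, 0.223, 1.24 and 1.36 CPM in low- and high-passage DPCs and low- and high-passage DSCs, with Cd3e, Cd3d, Cd3g and Cd2 at 3 reads or fewer throughout. Those T cell genes are given because Lef1 and Tcf7 are also T cell factors, and they were lowest in the same library as both. The immune genes summed to 123, 65.6, 175 and 95.4 CPM in the same order, most of it Lyz2, the Schwann genes to 12.7, 3.65, 31.7 and 5.29 CPM, and the skeletal muscle genes to 41.3, 1.11, 49.3 and 25.5 CPM, with Acta1 at 40.6, 0.362, 48.4 and 23.8 CPM. These 3 lists were also lowest in high-passage DPCs, where Lef1 and Tcf7 were lowest. Of the Schwann genes, Ngfr had 144 and 544 reads in low-passage DPCs and DSCs and Sox10 had 28 and 116, and both were at 0 at high passage. The melanocyte genes summed to 11.9 to 28.3 CPM and the endothelial genes to 2.87 to 8.99 CPM. The part of these genes in the differences below was not tested.

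Lef1, the lymphoid enhancer factor that partners β-catenin mainly as an activator, gave the widest passage difference of the 9 genes. It lies at chr3:131110471-131224356 in the deposited positions, on the plus strand of GRCm38, as ENSMUSG00000027985. It had 508 and 2 reads at low and high passage in DPCs, and 101 and 55 in DSCs. Low-passage DPCs thus stood above every other library, and high-passage DPCs were below the limit set by 3 reads. On the FPKM scale it was at 3.79, 0.0137, 0.690 and 0.301 in the same order, and in scaled units Lef1 was at 13.8, 0.0557, 2.66 and 1.21 CPM. It was 248-fold lower at high than at low passage in DPCs by the ratio of scaled counts (interval 68.2 to 2051). With the prior count the log2 fold change was -7.02, a smaller difference that depends on the prior count because of the 2 reads. Its interval without the prior count was -11.00 to -6.09. In DSCs it was also lower at high passage, by a log2 fold change of -1.11 (interval -1.64 to -0.65). The order of the cell types turned over between passages. Lef1 was higher in DPCs at passage 3, by 2.35 on the log2 scale (interval 2.06 to 2.70), and lower in DPCs at passage 9, at -3.56 (interval -7.52 to -2.52). The passage 9 value also rests on the 2 reads, and by the plain ratio Lef1 was 21.65-fold lower. A predicted antisense gene, Gm43352, overlaps 13.75% of the exonic bases of Lef1 on the other strand and had 47, 2, 6 and 2 reads in the same library order. The strand setting of the counting was not given in the sources used here, so reads of the pair cannot be told apart.

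Tcf7, which encodes TCF1, lies on the minus strand at chr11:52252371-52283014 and shared the direction of Lef1 with smaller differences. It had 142 and 26 reads at low and high passage in DPCs, and 159 and 104 in DSCs. The 2 low-passage libraries did not separate, and high-passage DPCs were the lowest. The log2 fold change with passage was -2.33 in DPCs (interval -3.08 to -1.80) and -0.86 in DSCs (interval -1.25 to -0.51). Between cell types it was -0.12 at passage 3 (interval -0.46 to 0.22) and -1.59 at passage 9 (interval -2.34 to -1.02), both DPCs over DSCs.

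Tcf7l1, encoding TCF3, the family member best known as a repressor, lies on the minus strand at chr6:72626378-72789254 and was lower at high passage by a similar amount in both cell types. Its reads were 1226 and 654 in low- and high-passage DPCs and 1610 and 1069 in low- and high-passage DSCs. After scaling this was 33.3 and 18.2 CPM in DPCs and 42.5 and 23.5 CPM in DSCs, each high-passage library below both low-passage ones. The log2 fold change was -0.87 in DPCs and -0.85 in DSCs, with intervals of -1.01 to -0.73 and -0.97 to -0.74. The DPC change minus the DSC change was -0.01.

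Tcf7l2, encoding TCF4, lies on the plus strand at chr19:55741810-55933654 as deposited, and was the steadiest of the family with passage on the count scale. Its reads were 1839 and 1779 at low and high passage in DPCs, and 2748 and 3157 in DSCs, or 49.97, 49.6, 72.5 and 69.3 CPM. The libraries sorted by cell type and not by passage. The log2 fold change of DPCs over DSCs was -0.54 at passage 3 and -0.48 at passage 9. With passage the log2 fold change was -0.01 in DPCs (interval -0.11 to 0.08) and -0.06 in DSCs (interval -0.14 to 0.01). On the deposited FPKM scale, which also divides by transcript length, the DPC value was 0.47 and the DSC value -0.13, so a small passage change in DPCs depended on the scale.

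The make-up of the TCF/LEF family differed accordingly. Of the summed FPKM of the 4 factors, Lef1 made up 12.0% and 0.0499% at low and high passage in DPCs, and 1.69% and 0.956% in DSCs. Tcf7 made up 5.54%, 0.958%, 4.50% and 2.68% in the same order. Lef1 and Tcf7 were thus minor members in every library and their shares were lowest in high-passage DPCs. Tcf7l2 made up 47.5% in low-passage DPCs and 75.6% in high-passage DPCs, against 61.3% and 72.4% in DSCs. The family sum was 31.7, 27.5, 40.8 and 31.5 FPKM in the same order. When reads per kilobase of the union of exons were used in place of FPKM, Tcf7l1 exceeded Tcf7l2 at low passage, with 49.3% against 33.1% in DPCs and 51.6% against 39.4% in DSCs, while Tcf7l2 led at high passage on both scales. On that scale the family sum was 17.2 and 10.6 in low- and high-passage DPCs and 20.98 and 14.9 in DSCs, again lowest in high-passage DPCs. Both tables are per gene, so long β-catenin-binding forms of Lef1 and Tcf7 were not separated from truncated forms that lack that domain.

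**Figure D1:**
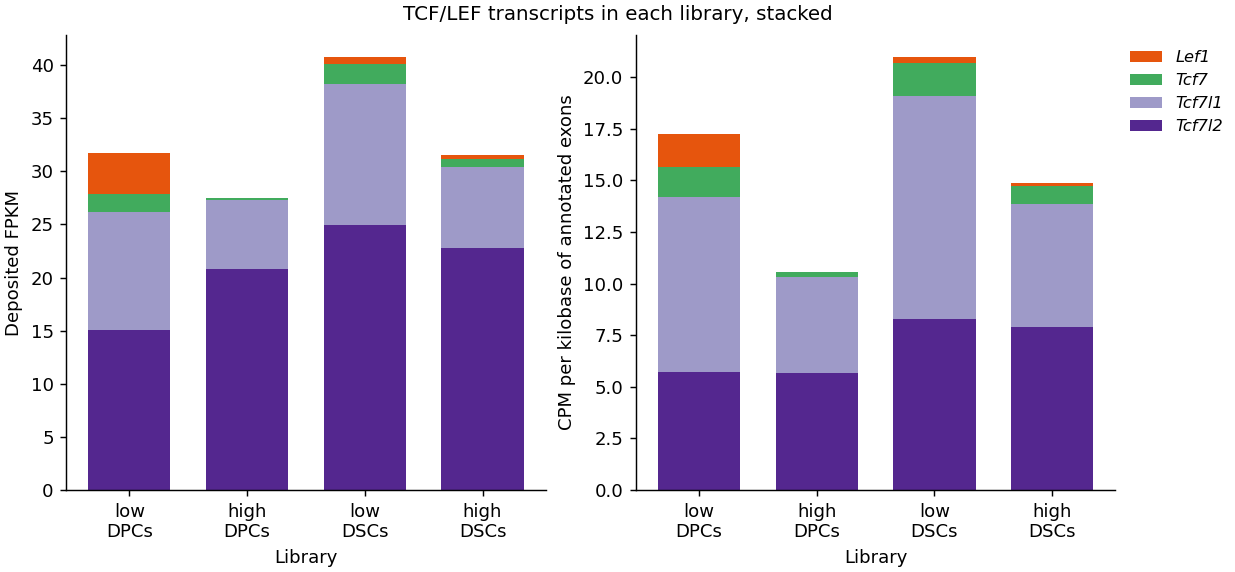
Levels of the 4 TCF/LEF factors stacked in 1 bar per library, as deposited FPKM (left) and as CPM per kilobase of annotated exons (right). On the FPKM scale the Lef1 segment is 12.0% of the bar of low-passage DPCs and 0.0499% of that of high-passage DPCs, while Tcf7l2 is 47.5% and 75.6%.

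Axin2, the inducible scaffold of the destruction complex and a standard transcriptional readout of Wnt signalling, ran opposite to Lef1 in DPCs. It lies at chr11:108920349-108950783 in the deposited positions, on the plus strand, as ENSMUSG00000000142. Its reads were 4 and 218 at low and high passage in DPCs, and 34 and 74 in DSCs, or 0.109, 6.08, 0.897 and 1.62 CPM. Low-passage DPCs were the lowest library and high-passage DPCs the highest. Axin2 was 55.9-fold higher at high passage in DPCs by the ratio of scaled counts (interval 21.5 to 207). With the prior count the log2 fold change was 5.26, a smaller difference because of the 4 reads, and its interval without the prior count was 4.43 to 7.69. In DSCs the value was 0.82 (interval 0.25 to 1.49), which reached 0 when the counts were halved to allow for both mates of a pair being counted. Its FPKM was 0.0219 and 1.57 in low- and high-passage DPCs and 0.182 and 0.826 in DSCs, so the DSC log2 ratio on that scale was 2.18, larger than on the count scale. That ratio passed 4-fold, which the count scale did not, while FPKM plus 0.1 gave 1.71. The 2 deposited scales therefore differed for this gene, for a cause that was not tested. Between cell types Axin2 was lower in DPCs at passage 3, at -2.57 (interval -5.00 to -1.56), and higher in DPCs at passage 9, at 1.87 (interval 1.52 to 2.30). Lef1 and Axin2 thus each had opposite signs between cell types at the 2 passages, in opposite order. Of all compared genes, 0.305% had passage changes at least as far apart between DPCs and DSCs as Lef1 (-5.91) and 0.992% at least as far apart as Axin2 (4.44). The same share was 13.3% for Tcf7 (-1.47) and 18.3% for Nkd2, so those genes stood closer to the bulk of the transcriptome in this measure. An antisense gene overlaps the exons of Axin2 too, as one does those of Tcf7l1, and both had 0 reads in every library.

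**Figure D2:**
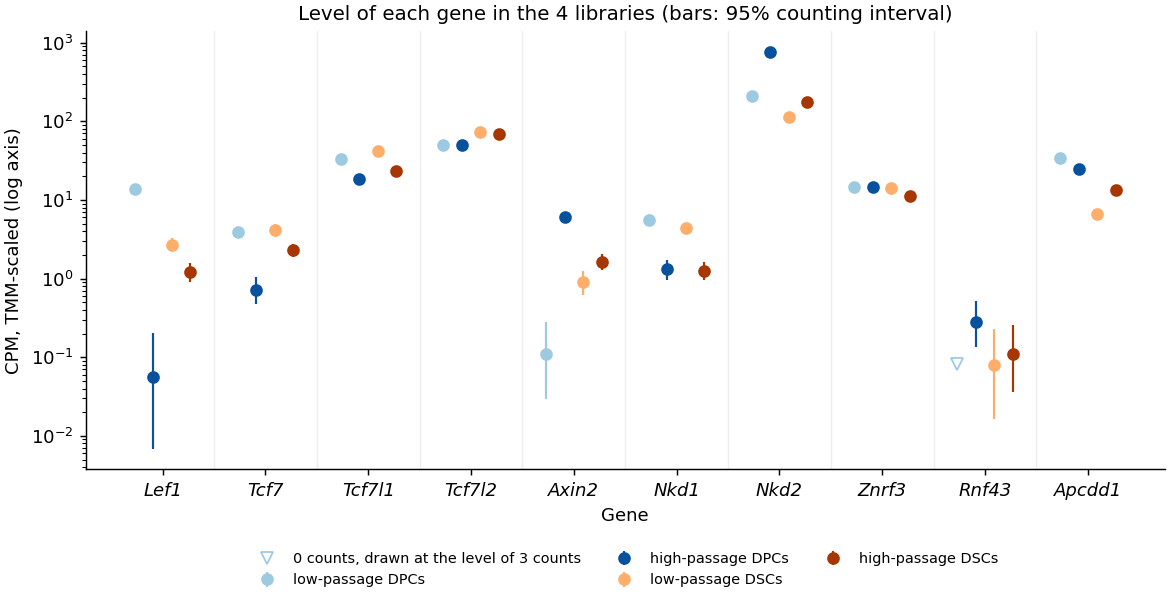
Level of each of the 10 genes in the 4 libraries, in CPM on a log axis, with 1 point per library. Lef1 is highest in low-passage DPCs at 13.8 CPM where Axin2 is lowest at 0.109 CPM.

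The naked cuticle genes encode Dishevelled-binding inhibitors, and here they differed with passage in opposite directions. Nkd1 lies at chr8:88521354-88594884 and Nkd2 at chr13:73818534-73847631. Nkd2 had 7791 and 27627 reads at low and high passage in DPCs, and 4270 and 8108 in DSCs, or 212, 770, 113 and 178 CPM. High-passage DPCs were well above the rest. Its log2 fold change with passage was 1.86 in DPCs (interval 1.83 to 1.90) and 0.66 in DSCs (interval 0.61 to 0.71), and DPCs exceeded DSCs by 0.91 at passage 3 and by 2.11 at passage 9. Nkd1 had 205 and 47 reads in low- and high-passage DPCs and 166 and 57 in low- and high-passage DSCs. Both high-passage libraries were low and did not separate from each other. Its log2 fold change was -2.05 in DPCs (interval -2.58 to -1.63) and -1.77 in DSCs (interval -2.27 to -1.37). Nkd2 had the highest FPKM of the 10 genes in each library. Per transcript length it exceeded Nkd1 in each library, by an FPKM ratio of 30.5 and 592 at low and high passage in DPCs, and 26.5 and 143 in DSCs. With reads per kilobase of exon union in place of FPKM the ratios were 35.9 and 555 in DPCs and 24.3 and 134 in DSCs, with the same order of libraries. Nkd2, at 233 FPKM in high-passage DPCs, lay at the 98.8th percentile of compared genes in that library.

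Znrf3 and Rnf43 encode related membrane E3 ubiquitin ligases that remove Frizzled receptors from the cell surface, and lie at chr11:5276324-5444847 and chr11:87662722-87735539. Znrf3 was nearly level, with 545 and 520 reads in low- and high-passage DPCs and 536 and 514 in low- and high-passage DSCs, or 14.8, 14.5, 14.1 and 11.3 CPM. The first 3 of these libraries did not separate and high-passage DSCs were lowest. The log2 fold change with passage was -0.03 in DPCs (interval -0.21 to 0.15) and -0.32 in DSCs (interval -0.50 to -0.15), but on the FPKM scale the signs turned to 0.02 and 0.18. Rnf43 was barely detected, with 0 and 10 reads in low- and high-passage DPCs and 3 and 5 in low- and high-passage DSCs. The counting interval of its log2 fold change with passage in DPCs had a lower limit of 1.201 and no upper limit, and it reached 0 when counts were halved. In DSCs its ratio was 1.39 (interval 0.27 to 8.93), which was not a detectable difference at this depth.

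Apcdd1, encoding a membrane glycoprotein that binds Wnt and Lrp5 and inhibits signalling at the surface, differed mainly by cell type. Its reads were 1267 and 893 at low and high passage in DPCs, and 250 and 612 in DSCs, or 34.4, 24.9, 6.59 and 13.4 CPM. Both DPC libraries were above both DSC libraries. DPCs exceeded DSCs by 2.38 on the log2 scale at passage 3 (interval 2.19 to 2.59) and by 0.89 at passage 9 (interval 0.74 to 1.04). With passage it was lower in DPCs, at -0.47 (interval -0.59 to -0.34), and higher in DSCs, at 1.02 (interval 0.81 to 1.25). On the FPKM scale it was at 11.3 and 8.12 in low- and high-passage DPCs and at 2.04 and 4.08 in DSCs, the same order of libraries.

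A difference of 4-fold was used to count genes, with no test. Between passages in DPCs, 3 of the 9 genes were at least 4-fold lower at passage 9 (Lef1, Tcf7 and Nkd1), against 4.36% of all compared genes, and 1 was past 4-fold upward (Axin2), against 5.58%. In DSCs 0 of 9 were lower and 0 were higher, against 1.16% and 2.67% of all compared genes, and in both cell types together 0 were lower and 0 higher, against 0.508% and 1.27%. On the FPKM scale without a pseudocount Axin2 passed 4-fold upward in both cell types, with a DSC log2 ratio of 2.18. With FPKM plus 0.1 its DSC value was 1.71, short of 4-fold. Nkd1 was close to the limit and fell short of it with a prior count of 10 (-1.90) and with FPKM plus 0.1 (-1.84). Nkd2 fell short of 4-fold upward in DPCs, at 1.86, and passed it with FPKM plus 0.1, at 2.19. Because the genes were chosen with these values known, nothing is read from the counts beyond their description. The median log2 fold change of the 9 genes was -0.47 in DPCs and -0.32 in DSCs, against 0.03 and 0.00 over all compared genes. Within 2-fold were 4 of the 9 genes in DPCs and 6 in DSCs, where 68.9% and 85.2% of all compared genes were.

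**Figure D3:**
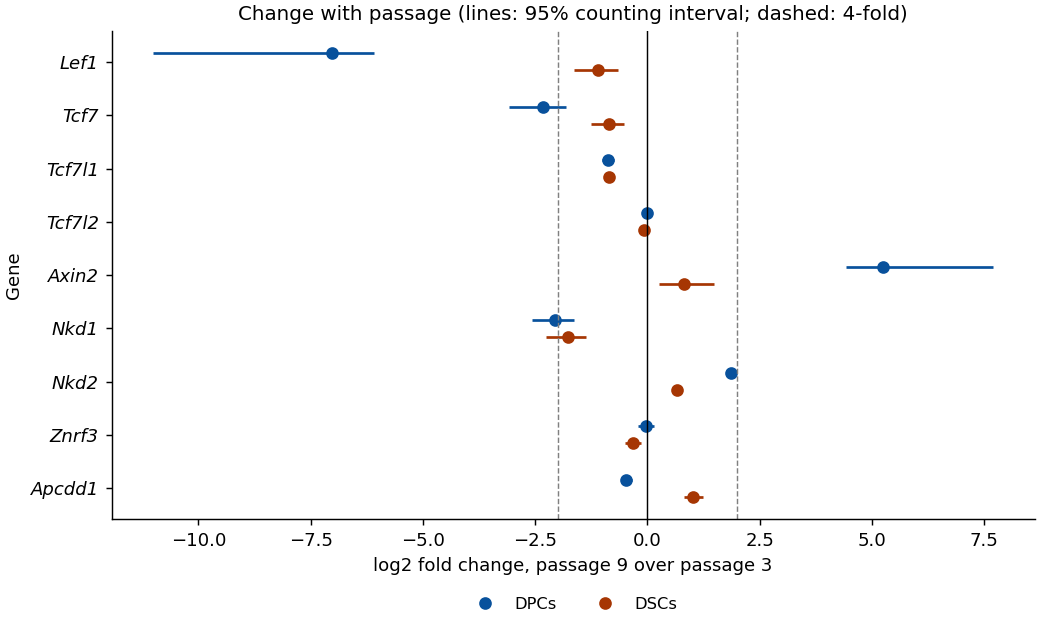
Log2 fold change of the 9 compared genes between passage 9 and passage 3 in DPCs and in DSCs. Points are log2 fold changes, lines are 95% counting intervals and dashed lines mark 4-fold. Lef1 (-7.02) and Axin2 (5.26) lie farthest from 0 in DPCs, while none of the DSC points passes 4-fold.

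Between cell types at passage 3, DPCs exceeded DSCs by at least 4-fold for 2 of the 9 genes (Lef1 and Apcdd1), against 1.52% of all compared genes, and fell short by as much for 1 (Axin2), against 2.77%. At passage 9, 1 gene (Nkd2) passed 4-fold upward in DPCs and 1 (Lef1) downward, against 2.5% and 3.91% of all compared genes. With FPKM plus 0.1 in place of counts, the passage 3 difference of Axin2 was -1.21 and the passage 9 difference of Lef1 was -1.82, both short of 4-fold. The medians of the 9 genes, 0.07 and 0.06, were close to those of all compared genes, 0.00 and -0.01. Comparisons of passages and of cell types share libraries, so their values are side by side here and are not independent. Over the 36 differences of these 9 genes, 30 counting intervals did not reach 0, and 28 when counts were halved.

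**Figure D4:**
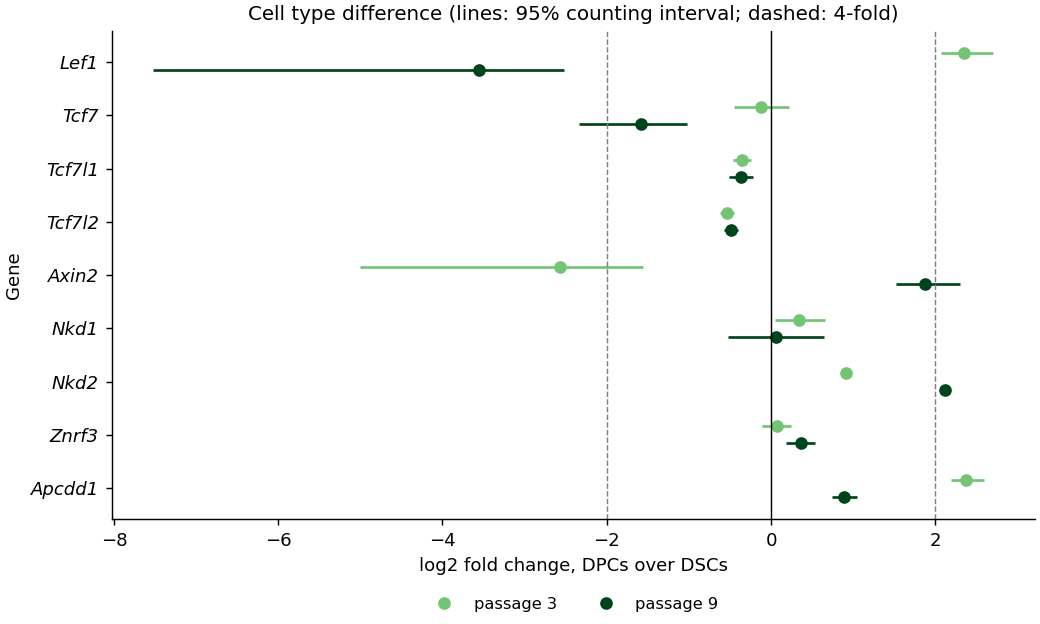
Log2 fold change of the 9 compared genes in DPCs over DSCs at passage 3 and at passage 9, with 95% counting intervals as lines and dashed lines at 4-fold. Lef1 and Axin2 change sides between the passages, from 2.35 to -3.56 and from -2.57 to 1.87, while Apcdd1 and Nkd2 stay above 0.

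The other genes of the pathway were counted in 5 lists, to be read against the shares of all compared genes given above. Among 19 genes of the destruction complex and of the Dishevelled proteins that act on it, 0 differed by 4-fold with passage in either cell type, and the median log2 fold change was 0.04 in DPCs and -0.04 in DSCs. Ctnnb1, which encodes β-catenin itself, was at 331 and 283 CPM in low- and high-passage DPCs and 197 and 240 CPM in DSCs, a log2 fold change of -0.23 and 0.29. Csnk1a1, the priming kinase of β-catenin, was at -0.31 and 0.03. Within the 4-fold limit the list was not level, since Apc, named after its values were seen, was at 0.62 in DPCs and -1.10 in DSCs. Of 15 corepressors and nuclear inhibitors, 0 differed by 4-fold in either cell type, with Aes at 0.26 in DPCs and 0.28 in DSCs and Ctbp1 at -0.31 and -0.34. The list medians were 0.03 in DPCs and -0.08 in DSCs.

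Of 13 nuclear coactivators, 1 was 4-fold higher in DPCs and 1 was 4-fold lower in DSCs, with medians of 0.28 and -0.06. Bcl9l, which bridges β-catenin to Pygopus proteins, was at 0.20 in DPCs and 0.44 in DSCs, and Tbl1x at 0.31 and -0.17. The genes past 4-fold, named after their values were seen, were the Pygopus pair. Pygo1 had 164 and 1146 reads in low- and high-passage DPCs and 348 and 599 in DSCs, a log2 fold change of 2.83 and 0.52. Pygo2 had 434 and 1363 reads in low- and high-passage DPCs and 1956 and 460 in DSCs, at 1.68 and -2.35. Both Pygopus genes were thus higher at passage 9 in DPCs, and they had opposite signs in DSCs. Of 7 R-spondins and their receptors, the upstream partners of Rnf43 and Znrf3, 0 differed by 4-fold in DPCs and 1 was higher in DSCs, with medians of 0.27 and 0.83. Rspo2 had 442 and 519 reads in low- and high-passage DPCs against 1671 and 4813 in DSCs, and its log2 fold change in DPCs over DSCs was -2.86 at passage 9. With passage, the receptor gene Lgr4 was at 0.01 in DPCs and -0.64 in DSCs. The gene past 4-fold was the receptor gene Lgr5, named after its values were seen, with 14 and 124 reads in low- and high-passage DSCs against 212 and 64 in DPCs, a log2 fold change of 2.72 in DSCs and -1.66 in DPCs.

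Other feedback inhibitors and general Wnt targets did not move together. Of 17 with enough reads, 4 were past 4-fold upward and 2 downward at passage 9 in DPCs, and 2 upward and 0 downward in DSCs, with list medians of -0.10 and 0.02. The growth factor genes Fgf9 and Fgf18 were 4-fold higher in both cell types, where 1.27% of all compared genes were. Fgf18 had 13 and 248 reads in low- and high-passage DPCs and 14 and 105 in DSCs, and Fgf9 had 3 and 18 in DPCs and 8 and 139 in DSCs. The DPC log2 fold change of Fgf9 was 2.06 with an interval of 0.84 to 5.03, so it passed the limit narrowly and on few reads. Wisp1, a matricellular target, was at 827 and 122 CPM in low- and high-passage DPCs and 878 and 297 CPM in DSCs, a log2 fold change of -2.77 and -1.56. The cell cycle gene Ccnd1 was at -1.36 in DPCs and 0.02 in DSCs. Targets with the direction of Axin2 in DPCs therefore stood beside targets with the direction of Lef1. Notum, Sp5, Sfrp2 and Wisp2 were named after their values were seen. Notum, a secreted enzyme that inactivates Wnt ligands, had 4 and 127 reads in low- and high-passage DPCs and 0 in both DSC libraries, a DPC log2 fold change of 4.49 (interval 3.63 to 6.92). Sp5, a general Wnt target with too few reads to be counted, had 0 and 14 reads in DPCs and 0 and 8 in DSCs, with lower limits of the counting interval of 1.77 and 0.51 on the log2 scale and no upper limits. Both genes shared the DPC direction of Axin2. Sfrp2, a secreted Wnt binder, had 0 and 32 reads in DPCs, with a lower limit of 3.07 on the log2 scale, and 11 and 6 in DSCs. Wisp2 was at 603 and 78.9 CPM in low- and high-passage DPCs and 684 and 510 CPM in DSCs, a DPC log2 fold change of -2.93.

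**Figure D5:**
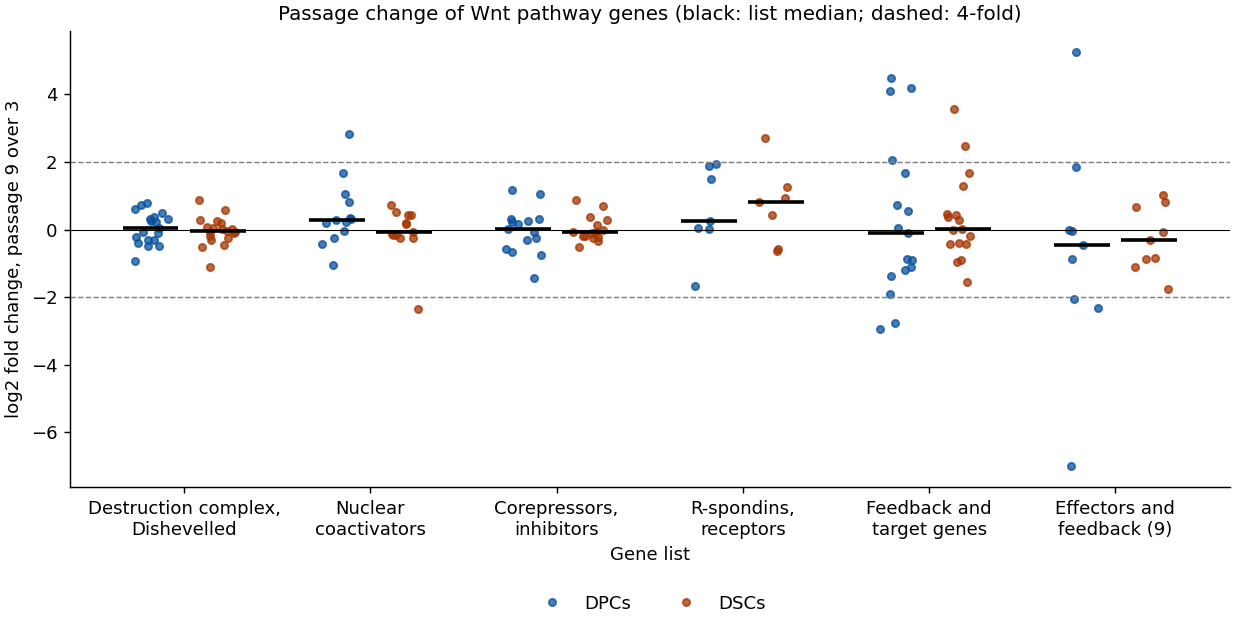
Log2 fold change between passage 9 and passage 3 for the compared genes of 5 Wnt pathway lists and for the 9 compared effector and feedback genes, in DPCs and in DSCs. Each point is 1 gene, black bars are medians and dashed lines mark 4-fold. The destruction complex and corepressor lists stay within 4-fold, while the feedback and target list runs from -2.93 to 4.49 in DPCs.

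The genes with the pattern most like Lef1 and Axin2 over the 4 libraries were found by the distance between log2 CPM values centred on each gene's mean, among genes with a mean of at least 100 reads. For Lef1 they were Eln, Robo2 and Gm28035, at distances of 1.12, 1.39 and 1.46. Eln, which encodes elastin, had 4358 and 38 reads in low- and high-passage DPCs and 466 and 240 in DSCs. For Axin2 they were Foxl2, Muc1 and Eps8l2, at distances of 0.78, 0.95 and 0.96. Foxl2, a forkhead transcription factor gene, had 10 and 315 reads in low- and high-passage DPCs and 36 and 151 in DSCs. With 4 libraries, a likeness of this kind is a description of these profiles.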

How the data were processed

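Poly-A RNA from 4 libraries, 1 per group, was sequenced as paired ends. The authors deposited raw counts of reads per gene, and a second table with FPKM values per gene (reads scaled to transcript length and library size). The submitters' processing notes name Bowtie 0.12.2 and the builds mm8 and mm9, whereas the deposited positions of 94.2% of 51633 gene identifiers were identical to GENCODE M21 on GRCm38. The counting program, its strand setting and its handling of multi-mapped reads were not given in the sources used here. The study's methods and the labels name different library kits.

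Library sizes were scaled by the trimmed mean of M values (edgeR 4.0.16, R 4.3.3), and log2 CPM was computed with a prior count of 2. Genes with a mean of at least 10 counts were compared at a threshold of 4-fold. With 1 library per group no model was fitted and no p-value was computed. Intervals are exact binomial (Clopper-Pearson) at 95% and cover counting error only. For a count of 0 no fold is given, only the interval's lower limit. Scripts were tested on simulated data. Other gene lists and the genes themselves were chosen with earlier results of these data known. Named genes were all 10 effector and feedback genes, list genes past 4-fold in both cell types, the 2 genes of highest mean CPM in each list, and the 3 nearest patterns to Lef1 and Axin2. Cell type markers, and list genes marked in the text as named after their values were seen, were named besides these. Of 85 list names, 4 were synonyms that matched no gene and were left out. Alternatives were other scalings (DESeq2 1.42.0 size factors, upper quartile, total counts), prior counts of 0.5 and 10, no filter or a mean of at least 100 counts, halved counts, FPKM with a pseudocount of 0.1 or 1, and a threshold of 2-fold. After the data were seen, reads per kilobase, FPKM without a pseudocount and the short core CTTTG were added. Promoter sequences came from RefSeq for GRCm38.p6. Apcdd1 promoter sequence was not used here.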

Additional observations from a re-analysis of the deposited data

Results flagged for a closer look

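Lef1 and Axin2 had opposite signs between the cell types at the 2 passages. The log2 fold change of DPCs over DSCs was 2.35 at passage 3 and -3.56 at passage 9 for Lef1, and -2.57 and 1.87 for Axin2. Apcdd1 had opposite signs with passage in the 2 cell types, with -0.47 in DPCs and 1.02 in DSCs. Each group is 1 library, so the difference was not tested for any of the 3 genes.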

How the results depend on the processing

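No paired analysis was possible because each group has 1 library and the labels give no replicate numbers shared between groups, and for the same reason no library could be left out. Of 45 member differences, 40 kept their sign under the alternatives tried and 5 changed sign, all of Tcf7l1, Tcf7l2 or Znrf3 and all on the FPKM scale, and some also with a mean count of at least 100. A pseudocount of 1 on the FPKM scale compressed low genes, with Axin2 at 1.33 and Lef1 at -2.24 in DPCs between passages. For genes at least 4-fold higher at passage 9 in DPCs (1 as reported), the count was 2 with no filter, where Rnf43 was added, and with FPKM + 0.1 and at 2-fold, where Nkd2 was added. It was 0 with a mean count of at least 100, where Axin2 had too few reads. With FPKM + 1 it stayed at 1, but the gene was Nkd2 (2.17) in place of Axin2. For those lower (3), it was 1 with FPKM + 1, and 2 with a prior count of 10 and with FPKM + 0.1, where Nkd1 fell short. In DSCs a 2-fold threshold gave 1 higher and 2 lower (0 and 0 as reported). At passage 3, genes higher in DPCs (2) were 1 with FPKM + 1, and those lower (1) were 0 with a prior count of 10, a mean count of at least 100, FPKM + 0.1 and FPKM + 1. At passage 9, genes higher in DPCs (1) were 2 at 2-fold, and those lower (1) were 0 with FPKM + 0.1 and FPKM + 1 and 2 at 2-fold. Among the pathway lists, a 2-fold threshold gave 4 coactivators, 3 corepressors, 4 R-spondin genes and 11 feedback and target genes in DPCs (1, 0, 0 and 6 as reported), and in DSCs 1 destruction complex gene, 2 R-spondin genes and 5 feedback and target genes (0, 1 and 2 as reported). Of all compared genes, 68.9% in DPCs and 85.2% in DSCs were within 2-fold, and nothing is read from these counts. FPKM + 1 gave 0 coactivators in each cell type, 0 R-spondin genes in DSCs, and 3 and 0 feedback and target genes in DPCs and DSCs. No filter gave 1 corepressor in DPCs and 4 feedback and target genes in DSCs, and a mean count of at least 100 gave 2 and 0 feedback and target genes in DPCs and DSCs. With a prior count of 10 and with halved counts, 5 feedback and target genes passed in DPCs. Depth limited Rnf43, Lef1 in high-passage DPCs and Axin2 in low-passage DPCs, each at 4 reads or fewer in a library.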
